A study of Mus musculus with 10 samples.

Results

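The genes of cholesterol and fatty acid synthesis were examined in mouse cerebral cortex after traumatic brain injury (TBI). They are 33 genes, found by symbol among the 55401 genes of the table: 18 enzymes of the sterol pathway, 6 regulators and targets of the sterol regulatory element-binding proteins (SREBPs), and 9 genes of fatty acid synthesis, elongation and desaturation. The 10 RNA sequencing libraries were cerebral cortex of 5 mice with TBI and of 5 controls, which the sample titles call Sham and the series' design text calls naïve. The strain, sex, age, injury model, time after injury and position of the sampled cortex are not given in the sources used here, and whether the controls had surgery is not settled. Levels are in FPKM, fragment counts scaled by transcript length and library size, which may be compared between genes, and ± is the SD of 5 libraries.

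Cholesterol does not cross the blood-brain barrier, so brain cells make their own, by a chain of enzymes that runs from acetyl-CoA through mevalonate and squalene to sterols. Most of it lies in myelin, and astrocytes also make sterol and pass it to neurons. The SREBP transcription factors switch on these enzymes when sterol is low: Srebf2 encodes the form tied mainly to sterol synthesis and Srebf1 the forms tied more to fatty acid synthesis. The escort protein Scap carries the precursors to the Golgi for cleavage, and the Insig proteins hold them back in the endoplasmic reticulum when sterol is high. Oxysterols act through liver X receptors, which raise cholesterol export genes and Srebf1.

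After injury, enzymes at separate points of the sterol chain were lower, the SREBP target Stard4 was lower too, and the transcription factor gene Srebf1 was higher. Hmgcs1, the cytosolic hydroxymethylglutaryl-CoA synthase at the entry to the mevalonate pathway, was at 37.8 ± 2.85 FPKM in TBI and 54.2 ± 2.72 FPKM in Sham. Srebf1 was at 6.53 ± 0.218 FPKM in TBI and 4.12 ± 0.618 FPKM in Sham. No fatty acid gene passed the test. In edgeR's quasi-likelihood test at an adjusted p under 0.05, 3 of the 18 sterol enzymes were lower and 0 higher, where 0.472% of all 16316 tested genes were lower and 3.57% higher. The 77 genes behind the lower share became 37, 42, 41 and 47 without TBI replicates 1, 2, 3 and 5, and 45, 42 and 45 without Sham replicates 1, 2 and 3. They became 63 without TBI replicate 4, and 84 and 58 without Sham replicates 4 and 5. Of the 6 SREBP genes 1 was higher and 1 lower, and of the 9 fatty acid genes 0 passed, where 4.04% of all tested genes passed in either direction. Hmgcs1 and Srebf1 passed in all alternatives described below. Cyp51, a called sterol enzyme with an edgeR adjusted p = 0.0491, lost its call in most of them. Sqle and Stard4 lost theirs on the TPM scale, and Stard4 also with replicate number as a block. All 33 members met the expression filter in these libraries, and the lowest count of a member in any library was 582.

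The 250 bases before the annotated start are shown for genes that passed and have a RefSeq window. They were searched for letters by which SREBPs and their partners are known to act, and not every window held each of these. Sequences are RefSeq, build GRCm38.p6, 5′ to 3′ on the gene's strand, and stretches inside annotated exons are left out. Capitals mark any of 5 motifs searched on both strands: TCACNCCAC, a form of the sterol regulatory element, CCAAT, the box of the SREBP partner NF-Y, GGGCGG, the GC box of Sp1, CACGTG, an E-box, and a form of the liver X receptor element known from mouse Srebf1, with 1 free base, matched in the last sequence as CCGCCAGTAA and CCGCTAGTAA.
Hmgcs1, chr13:119690101-119690350, plus strand: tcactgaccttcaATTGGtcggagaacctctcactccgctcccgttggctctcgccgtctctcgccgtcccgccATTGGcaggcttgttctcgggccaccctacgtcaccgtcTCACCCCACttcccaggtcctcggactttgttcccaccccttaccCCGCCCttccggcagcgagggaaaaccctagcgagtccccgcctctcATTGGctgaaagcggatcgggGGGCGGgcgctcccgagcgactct
Cyp51, chr5:4104747-4104947, minus strand: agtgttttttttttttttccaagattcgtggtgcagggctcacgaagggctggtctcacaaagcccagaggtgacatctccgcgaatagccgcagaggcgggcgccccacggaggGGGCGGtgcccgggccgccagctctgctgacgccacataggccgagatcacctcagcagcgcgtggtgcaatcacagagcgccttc
Srebf1, the most downstream of 3 starts, chr11:60210472-60210721, minus strand: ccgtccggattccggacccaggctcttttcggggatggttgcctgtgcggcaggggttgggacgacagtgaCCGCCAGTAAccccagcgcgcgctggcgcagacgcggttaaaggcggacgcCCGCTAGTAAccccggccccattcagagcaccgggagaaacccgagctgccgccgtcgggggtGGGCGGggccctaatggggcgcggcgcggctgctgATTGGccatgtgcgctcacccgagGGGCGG

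The Hmgcs1 window held the sterol element letters TCACCCCAC 137 bases before the start, 3 NF-Y boxes and 2 GC boxes. The printed Cyp51 stretch held 1 GC box, and an NF-Y box lay 29 bases before the start in the exonic stretch left out. The printed Srebf1 window held 2 liver X receptor forms, 179 and 128 bases before the start, beside an NF-Y box and 2 GC boxes. That form is known from Srebf1 and was added to the search after this window was seen, so its presence there is no result. The windows of the other 2 Srebf1 starts held no such form, but an NF-Y box in 1 and 2 GC boxes in the other, and the gene-level table does not tell which Srebf1 start was used. None of the marked letters overlapped in the 3 windows.

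Of the 33 members 26 had such a window. A gene counted if any of its windows held the letters. The 15 sterol enzymes had 18 windows, the 5 SREBP genes 10 and the 6 fatty acid genes 6, where all 27025 genes had 32851. Each SREBP gene thus had more windows to hold them. NF-Y letters stood in 14 of 15 sterol enzymes, in 4 of 5 SREBP genes and in 2 of 6 fatty acid genes, where 33.9% of all 32851 windows and 37.5% of genes held them. GC boxes stood in 14 of 15 sterol enzymes, in 5 of 5 SREBP genes and in 2 of 6 fatty acid genes, against 32.7% of all windows and 35.4% of genes. E-boxes stood in 3 of 15, 2 of 5 and 1 of 6 genes of these groups, against 6.02% of all windows and 6.86% of genes. The sterol element form TCACNCCAC stood in 1 of the 26, Hmgcs1, against 1.05% of all windows and 1.225% of genes. The liver X receptor form stood in 1 of the 26, Srebf1, and in 0.0426% of all windows. That form was added after the Srebf1 window was seen, so these values are no comparison. These counts describe letters in the windows only, the number of windows per gene was not matched, and the difference between the groups was not tested. Fdps, Fdft1, Sqle, Stard4, Fads1, Scd1 and Scd2 had no window.

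The mevalonate steps turn acetyl-CoA into farnesyl diphosphate, and Hmgcs1 stood out among their 7 genes. Hmgcs1 (ENSMUSG00000093930, mm10 chromosome 13, 119690379 to 119708260) had 33.2, 38.2, 37.6, 39.8 and 40.4 FPKM in TBI replicates 1 to 5, against 56.0, 55.7, 49.7, 56.1 and 53.5 FPKM in Sham replicates 1 to 5. Every TBI library lay below every Sham library. Its level in TBI was 0.680 times that in Sham (log2 fold change of -0.56 with an approximate SE of 0.06, edgeR adjusted p = 0.000585), and it passed in all alternatives and with any single library left out. Its span overlaps Gm48342, an antisense gene at a mean of 0.0755 FPKM in TBI and 0.196 FPKM in Sham.

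Idi1, the isomerase that balances the isoprenoid building blocks, had 5.34, 6.34, 5.83, 7.49 and 8.80 FPKM in TBI libraries, against 10.8, 8.35, 8.09, 7.96 and 9.70 FPKM in Sham libraries. TBI replicates 1 to 4 lay below all Sham libraries and TBI replicate 5 lay among them. Idi1 did not pass (log2 fold change -0.45, edgeR adjusted p = 0.132), while without TBI replicate 5 it did (-0.55, edgeR adjusted p = 0.0377). The remaining mevalonate genes had smaller differences within overlapping groups. Fdps, the farnesyl diphosphate synthase, was at 5.66 ± 0.422 FPKM in TBI and 6.40 ± 0.993 FPKM in Sham. Its span overlaps Gm43738 on the same strand, at a mean of 0.0041 FPKM in TBI and 0.687 FPKM in Sham. Acat2, the cytosolic thiolase of the first step, was at 12.5 ± 1.87 FPKM in TBI and 13.7 ± 1.69 FPKM in Sham.

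The kinases Mvk and Pmvk and the decarboxylase Mvd act in sequence between mevalonate and Idi1. Mvk was at 5.44 ± 0.783 FPKM in TBI and 5.98 ± 0.453 FPKM in Sham. Pmvk was at 18.3 ± 1.08 FPKM in TBI and 19.4 ± 1.96 FPKM in Sham. Mvd was at 9.68 ± 1.77 FPKM in TBI and 10.7 ± 0.830 FPKM in Sham. None of the 3 passed in edgeR, with adjusted p of 0.479, 0.535 and 0.549 for Mvk, Pmvk and Mvd.

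The steps from squalene synthesis to cholesterol had 2 of 11 genes lower in edgeR, where 0.472% of all tested genes were, and the groups of Cyp51, the weaker call, overlapped. Sqle (mm10 chromosome 15, 59315077 to 59331192), the squalene epoxidase that adds the first oxygen and is a control point of the chain, had 7.34, 8.20, 7.24, 7.93 and 8.02 FPKM in TBI libraries, against 10.6, 10.7, 8.54, 9.30 and 10.3 FPKM in Sham libraries. The groups did not overlap, though TBI replicate 2 and Sham replicate 3 came close. Sqle was 23.5% lower in TBI (log2 fold change of -0.39 with an approximate SE of 0.07, edgeR adjusted p = 0.00746), and its call was lost only on the TPM scale among the alternatives (limma adjusted p = 0.0644).

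Cyp51 (mm10 chromosome 5, 4081145 to 4104746), the lanosterol demethylase, had 11.4, 12.8, 11.3, 12.4 and 14.5 FPKM in TBI libraries, against 15.7, 15.2, 13.3, 14.9 and 16.6 FPKM in Sham libraries. The groups overlapped, since TBI replicate 5 lay above Sham replicate 3. Cyp51 was 19.7% lower (log2 fold change -0.32, approximate SE 0.08), with an edgeR adjusted p = 0.0491 that lay next to the threshold. Its adjusted p was 0.125, 0.105, 0.123 and 0.101 without TBI replicates 1, 2, 3 and 4, and 0.110, 0.103, 0.0793 and 0.113 without Sham replicates 1, 2, 4 and 5, while its log2 fold change in these 8 fits stayed between -0.32 and -0.28. Its span overlaps Akap9 on the opposite strand, at a mean of 3.31 FPKM in TBI and 3.34 FPKM in Sham.

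Nsdhl and Sc5d were the nearest to Cyp51 in p. Nsdhl, a dehydrogenase that helps remove methyl groups from the sterol ring, had 7.23, 8.45, 8.92, 9.10 and 7.87 FPKM in TBI libraries, against 9.76, 10.4, 9.07, 9.46 and 9.74 FPKM in Sham libraries. Only TBI replicate 4 reached the lowest Sham library (log2 fold change -0.26, edgeR adjusted p = 0.0848). Sc5d, a desaturase near the end of the chain, ranged from 12.9 to 14.1 FPKM in TBI and from 14.0 to 16.1 FPKM in Sham (log2 fold change -0.16, edgeR adjusted p = 0.112). At an unadjusted p under 0.05, 6 of the 18 sterol enzymes were lower and 0 higher, where 5.42% of all tested genes were lower and 9.57% higher. These 6 were Hmgcs1, Sqle, Cyp51, Nsdhl, Sc5d and Idi1, and DESeq2 called the same 6 at an adjusted p under 0.05, where it called 1.40% lower of the 16305 genes to which it gave an adjusted p. Limma called 2 of the 18 lower on log2(FPKM + 1), where 0.257% of all genes were lower, and 1 on the TPM scale, where 0.165% were.

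The remaining 7 of these 11 genes did not pass. Lss, which closes squalene epoxide into lanosterol, was at 2.40 ± 0.293 FPKM in TBI and 2.63 ± 0.149 FPKM in Sham, the lowest level of the 18 in both groups. Hsd17b7, a ketoreductase of the demethylation steps, was at 3.10 ± 0.254 FPKM in TBI and 3.36 ± 0.270 FPKM in Sham. Msmo1, the methylsterol oxidase, was at 10.2 ± 0.840 FPKM in TBI and 11.0 ± 2.44 FPKM in Sham, with Sham replicates 1 and 3 below the other Sham libraries. Tm7sf2, a sterol reductase, was at 3.26 ± 0.588 FPKM in TBI and 3.47 ± 0.306 FPKM in Sham. Its span overlaps Vps51 on the same strand, at a mean of 8.115 FPKM in TBI and 7.487 FPKM in Sham.

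Dhcr7, the reductase that makes cholesterol from its dehydro precursor, was at 5.32 ± 0.841 FPKM in TBI and 5.46 ± 0.259 FPKM in Sham. Ebp, the sterol isomerase, was at 6.13 ± 0.513 FPKM in TBI and 6.18 ± 0.477 FPKM in Sham, the smallest difference of the branch. Fdft1, the squalene synthase, was at 17.5 ± 3.50 FPKM in TBI and 20.2 ± 6.27 FPKM in Sham. Its Sham replicates 1 and 4, at 26.2 and 27.6 FPKM, lay above the other 8 libraries, which ranged from 13.7 to 21.2 FPKM. The span of Fdft1 overlaps on the opposite strand with Ctsb, a cathepsin gene at a mean of 136 FPKM in TBI and 83.9 FPKM in Sham, and whether strand was used in counting is not given in the sources used here.

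Across the 18 sterol enzymes the estimated log2 change was below 0 for 18 of 18, from -0.56 to -0.05, except that on the TPM scale the estimate of Ebp was just above 0 and the count 17. Their median was -0.17, where the median of all tested genes was -0.01 and 52.7% of them lay below 0. Some lists described below were also one-sided. All 7 cortical layer markers, with a median of -0.17, and 9 of 10 neuron markers lay below 0. All 12 fatty acid oxidation genes lay above 0, with a median of 0.17, while oligodendrocyte markers had 6 on each side. Genes of the same libraries are not independent observations, and the count was not tested. The 9 fatty acid genes had 5 estimates below 0 and 4 above, with a median of -0.0042, and the number below 0 ranged from 3 to 6 over the alternatives.

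**Figure D1:**
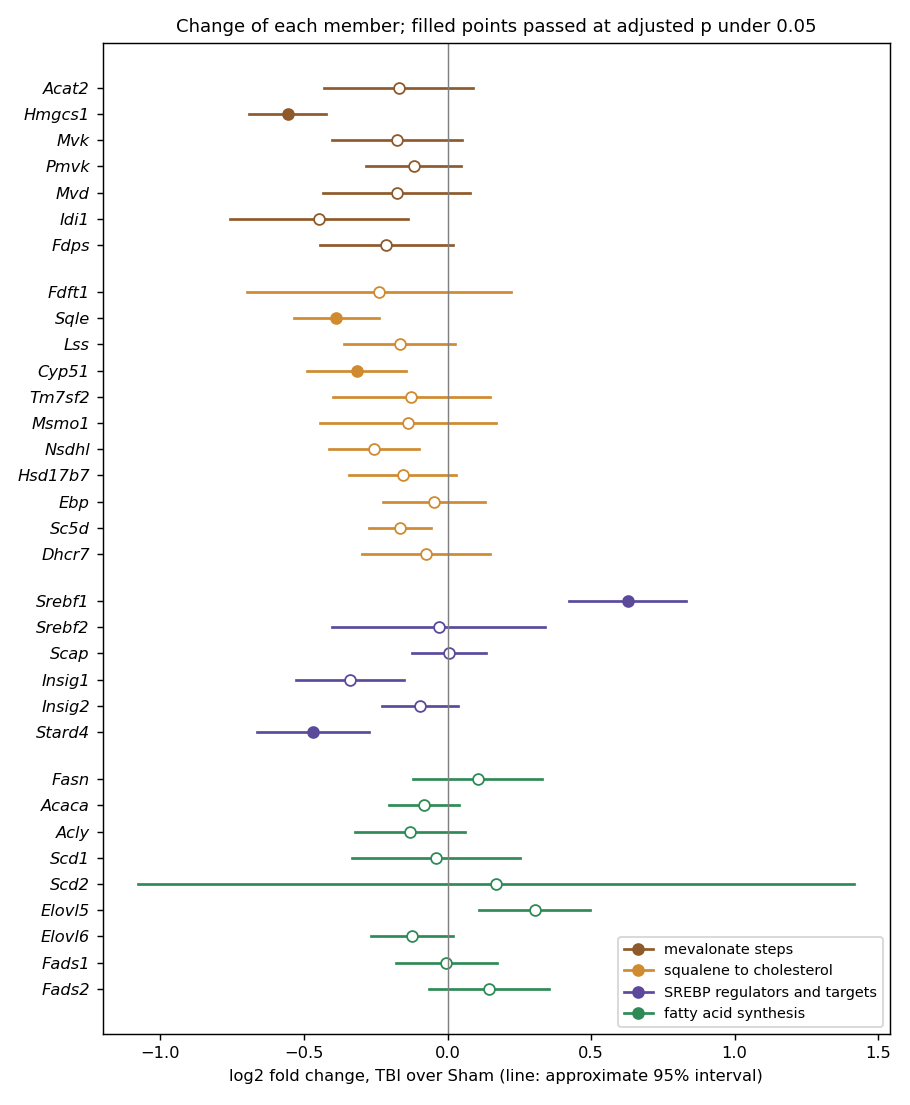
Log2 fold change of TBI over Sham for each of the 33 members (horizontal axis), with approximate 95% intervals from edgeR as lines, grouped by role; filled points passed at an adjusted p under 0.05. The 18 sterol enzymes lie left of 0, though Ebp crosses to just above 0 on the TPM scale, while the 9 fatty acid genes lie on both sides.

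Among the SREBP genes the transcription factor gene and a target moved in opposite directions. Srebf1 (ENSMUSG00000020538, mm10 chromosome 11, 60199089 to 60222581) had 6.15, 6.67, 6.59, 6.59 and 6.65 FPKM in TBI libraries, against 3.62, 3.83, 3.59, 4.60 and 4.95 FPKM in Sham libraries. Every TBI library lay above every Sham library, and the TBI libraries lay close together. Srebf1 was 1.54-fold higher in TBI (log2 fold change of 0.63 with an approximate SE of 0.09, edgeR adjusted p = 0.00289), and it passed in all alternatives and with any single library left out. The count is per gene, so the forms of SREBP that Srebf1 encodes are not told apart. Its span overlaps Rai1 on the opposite strand, at a mean of 4.04 FPKM in TBI and 3.44 FPKM in Sham.

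Srebf2, the main activator of sterol genes, was at 20.9 ± 2.23 FPKM in TBI and 20.8 ± 5.66 FPKM in Sham (edgeR adjusted p = 0.965). Its TBI values ran from 18.03 to 23.84 FPKM, and its Sham values were uneven, at 22.4, 26.8, 14.8, 25.2 and 14.9 FPKM in replicates 1 to 5. The interval of its log2 difference, -0.40 to 0.34, includes changes as large as that of Sqle. Scap, the escort of both precursors, was at 11.2 ± 0.690 FPKM in TBI and 10.9 ± 0.584 FPKM in Sham, with an interval of -0.12 to 0.13 for the log2 difference.

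Stard4, a carrier that moves cholesterol between membranes and a known SREBP target, had 2.93, 3.41, 3.83, 3.86 and 3.19 FPKM in TBI libraries, against 4.72, 5.20, 4.35, 4.31 and 4.66 FPKM in Sham libraries. The groups did not overlap. It was 27.8% lower in TBI (log2 fold change of -0.47 with an approximate SE of 0.09, edgeR adjusted p = 0.0114). Its call was lost on the TPM scale (limma adjusted p = 0.0635) and with replicate number as a block (edgeR adjusted p = 0.0693).

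Insig1, itself switched on by SREBPs and a brake on them, had 11.9, 12.5, 14.0, 14.1 and 15.9 FPKM in TBI libraries, against 15.9, 16.3, 15.6, 18.3 and 18.2 FPKM in Sham libraries. Only TBI replicate 5 lay above the lowest Sham library. Insig1 missed the threshold (log2 fold change of -0.34 with an approximate SE of 0.09, edgeR adjusted p = 0.0555), passed without TBI replicate 5 (edgeR adjusted p = 0.0260), and passed with DESeq2 (adjusted p = 0.00754). Its paralog Insig2, at 9.79 ± 0.419 FPKM in TBI and 10.2 ± 0.803 FPKM in Sham, did not pass (log2 fold change -0.10, edgeR adjusted p = 0.527). Groups that did not overlap were found for 3 members lower in TBI, Hmgcs1, Sqle and Stard4, and for 1 higher, Srebf1, where 0.729% of all tested genes were so placed lower and 5.60% higher, 6.33% in all.

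**Figure D2:**
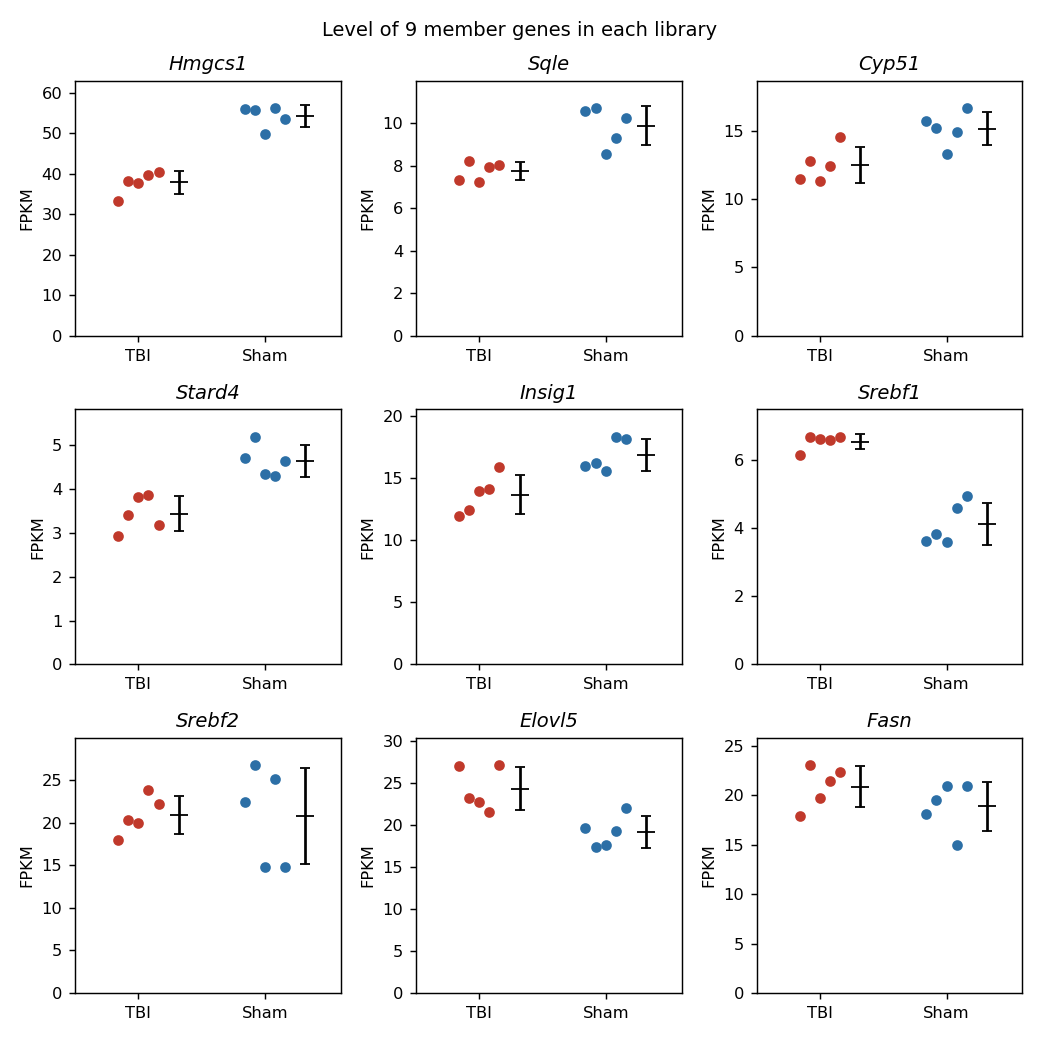
FPKM of 9 members in each library (vertical axes start at 0), with TBI libraries in red and Sham libraries in blue; points are replicates 1 to 5 from left to right, and bars are the mean and SD of 5. The groups of Hmgcs1, Sqle, Stard4 and Srebf1 do not overlap, while those of Cyp51, Insig1, Srebf2, Elovl5 and Fasn do.

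Fatty acid synthesis turns cytosolic acetyl-CoA into palmitate and then longer and unsaturated chains. Of its 9 genes 0 passed in edgeR, and at an unadjusted p under 0.05 only Elovl5 stood, where 15.0% of all tested genes did. DESeq2 called 1 higher, where it called 5.13% of all genes higher, and limma on the TPM scale called 1 higher, where 4.43% of all genes were; both were Elovl5. Limma on log2(FPKM + 1) called 0, where 4.17% of all genes were higher. Elovl5, which lengthens polyunsaturated chains, had 27.0, 23.3, 22.8, 21.6 and 27.2 FPKM in TBI libraries, against 19.7, 17.4, 17.6, 19.3 and 22.1 FPKM in Sham libraries. Only Sham replicate 5 lay above the lowest TBI library, and the estimate was higher in TBI (log2 fold change of 0.30 with an approximate SE of 0.09, edgeR adjusted p = 0.0966).

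Elovl6, which lengthens palmitate, had 8.17, 7.99, 8.46, 8.16 and 8.37 FPKM in TBI libraries, against 8.70, 9.60, 7.88, 7.87 and 9.63 FPKM in Sham libraries. Its TBI libraries lay inside the Sham range (log2 fold change -0.12, edgeR adjusted p = 0.414). Fasn, the fatty acid synthase and a classic SREBP target, was at 20.9 ± 2.09 FPKM in TBI and 18.9 ± 2.50 FPKM in Sham, with an interval of -0.12 to 0.33 for the log2 difference. Acaca, the acetyl-CoA carboxylase that commits carbon to fatty acids, was at 3.63 ± 0.130 FPKM in TBI and 3.73 ± 0.216 FPKM in Sham, with an interval of -0.20 to 0.04. Acly, which makes the cytosolic acetyl-CoA that both branches use, was at 27.3 ± 2.16 FPKM in TBI and 29.1 ± 3.55 FPKM in Sham, with an interval of -0.32 to 0.06.

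The desaturases Fads1 and Fads2, neighbours on chromosome 19, act on polyunsaturated chains. Fads1 was at 48.0 ± 5.42 FPKM in TBI and 46.9 ± 2.63 FPKM in Sham, and Fads2 was at 61.5 ± 8.60 FPKM in TBI and 54.2 ± 5.08 FPKM in Sham. Neither passed in edgeR (adjusted p = 0.989 and 0.553). Scd1 and Scd2, also neighbours on chromosome 19, are paralogous stearoyl-CoA desaturases that make oleate. Scd1 was at 33.6 ± 6.39 FPKM in TBI and 33.7 ± 4.33 FPKM in Sham.

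Scd2 had 34.9, 42.2, 167, 35.9 and 49.5 FPKM in TBI libraries, against 140, 41.2, 41.7, 23.5 and 40.5 FPKM in Sham libraries. A single library in each group, TBI replicate 3 and Sham replicate 1, stood far above the other 8. Its estimate of 0.17 in log2 became -0.54 when TBI replicate 3 was left out and 0.81 when Sham replicate 1 was, and it did not pass in any of these fits, so the table sets no useful bound on its change (interval -1.08 to 1.42). How the authors' counting divided reads between the Scd genes is not given in the sources used here.

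The sterol difference was uneven across the injured mice. Taking each member's log2 ratio to its Sham mean, the median over the 18 sterol enzymes was -0.41, -0.13, -0.17, -0.13 and 0.02 in TBI replicates 1 to 5, against 0.04, 0.00, -0.16, 0.05 and 0.03 in Sham replicates 1 to 5. TBI replicate 1 had the lowest TBI value for 13 of the 18 enzymes and TBI replicate 5 the highest for 13, while Sham replicate 3 had the lowest Sham value for 12. The branch as a whole therefore overlapped between groups, while Hmgcs1 and Sqle did not. Over the 9 fatty acid genes the same median was -0.08, -0.05, 0.06, -0.09 and 0.24 in TBI libraries, against -0.04, 0.05, -0.02, -0.05 and 0.14 in Sham libraries. In each of the 5 TBI libraries the fatty acid median lay above the sterol median, as it did in 3 of the 5 Sham libraries, and this difference between branches was not tested.

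**Figure D3:**
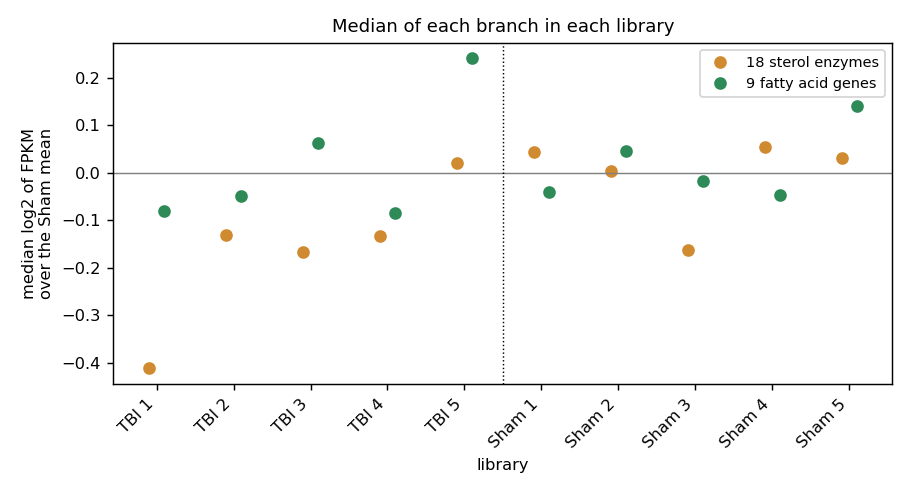
Median over branch members of the log2 ratio of FPKM to the Sham mean, by library, for the 18 sterol enzymes and the 9 fatty acid genes. The sterol median is lowest in TBI replicate 1, at -0.41. TBI replicates 2, 4 and 5, at -0.13, -0.13 and 0.02, lie inside the Sham range of -0.16 to 0.05, and TBI replicate 3, at -0.17, lies just below it.

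Added up, the 18 sterol enzymes came to 163, 191, 183, 187 and 207 FPKM in TBI libraries, against 234, 221, 194, 232 and 224 FPKM in Sham libraries, a sum in which Hmgcs1 has the largest part. With the 3 called enzymes left out, the median log2 ratio of the other 15 was -0.39, -0.11, -0.15, -0.09 and 0.04 in TBI libraries, against 0.03, 0.00, -0.15, 0.07 and 0.01 in Sham libraries. These 15 overlapped between the groups, with TBI replicates 2 to 5 inside the span of the Sham libraries. TBI replicate 1, the lowest, was also the library with the fewest counts.

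**Figure D4:**
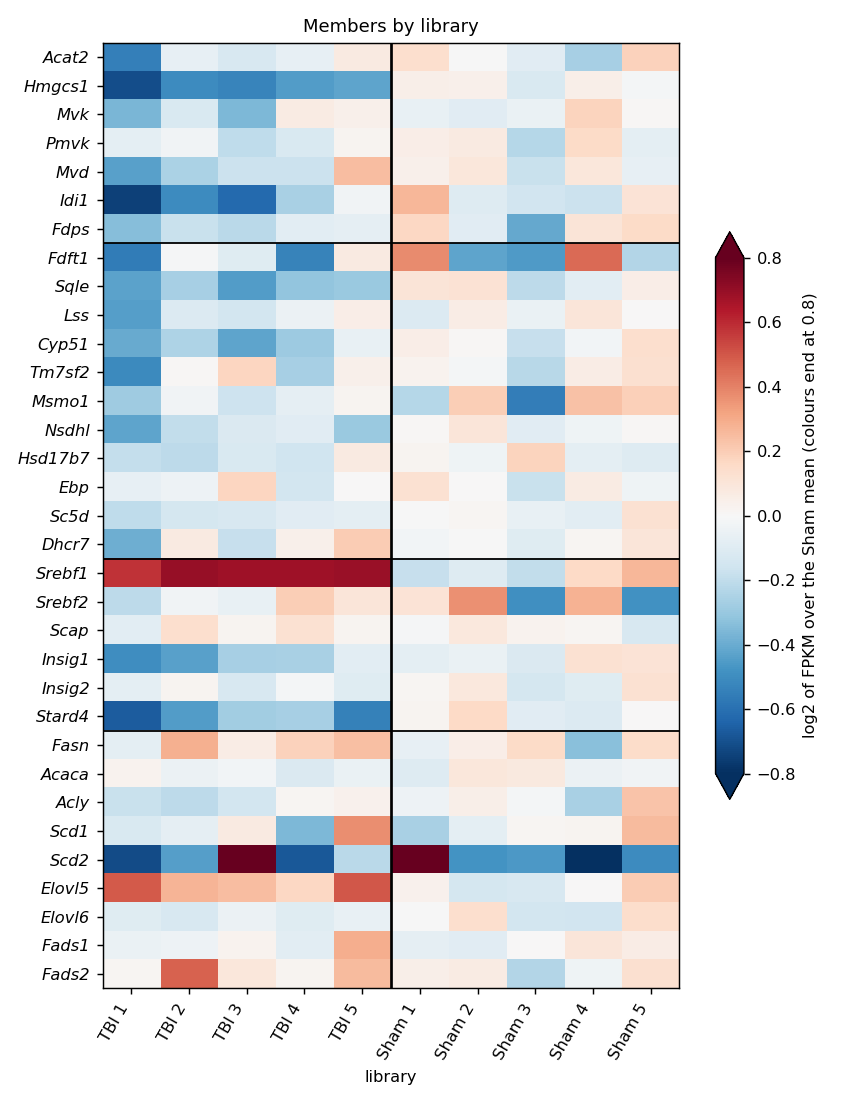
Log2 ratio of FPKM to the Sham mean for each of the 33 members (rows, with lines between the mevalonate, squalene to cholesterol, SREBP and fatty acid groups) in each library (columns); colours end at 0.8 in either direction. Hmgcs1 is blue in all 5 TBI libraries and Srebf1 red in all 5, and Scd2 shows its 2 high libraries, TBI replicate 3 and Sham replicate 1.

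Genes around the pathway were followed as fixed lists. Of 12 genes of cholesterol turnover, storage and lysosomal release 4 were higher and 0 lower in edgeR, where 3.57% of all tested genes were higher, with a median log2 change of 0.28. They were Npc2, the lysosomal cholesterol carrier, at 17.0 ± 2.48 FPKM in TBI and 9.87 ± 0.894 FPKM in Sham (edgeR adjusted p = 0.00188), the lysosomal lipase Lipa at 3.20 ± 0.279 FPKM in TBI and 2.30 ± 0.184 FPKM in Sham (edgeR adjusted p = 0.00992), the oxysterol-making hydroxylase Ch25h, and Lcat, which esterifies cholesterol on lipoproteins. Ch25h was at 1.11 ± 0.576 FPKM in TBI and 0.259 ± 0.103 FPKM in Sham, 4.12-fold higher (edgeR adjusted p = 0.0111). Lcat, named though outside the rule for named genes, was at 21.0 ± 2.56 FPKM in TBI and 14.2 ± 2.55 FPKM in Sham (edgeR adjusted p = 0.0444). Of 7 liver X receptor genes and targets, Abca1, the cholesterol exporter, was higher at 8.60 ± 1.99 FPKM in TBI and 2.79 ± 0.347 FPKM in Sham (edgeR adjusted p = 0.000428), and the list's median was 0.26. It was 1 of 7 called, against the same 3.57%.

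Genes that flank the sterol chain without being its enzymes showed no call, though in edgeR only 4.04% of all tested genes passed. At an unadjusted p under 0.05, 15.0% of all tested genes stood. In lists this short 0 calls is near the share called and does not set these genes apart. Of 11 genes of SREBP cleavage and of sterol-regulated degradation 0 passed in edgeR, DESeq2 and limma, and 0 at an unadjusted p under 0.05, with a median of 0.01. Marchf6, a ubiquitin ligase of that degradation, had the smallest p, at 22.4 ± 0.991 FPKM in TBI and 23.5 ± 1.89 FPKM in Sham. Of 9 genes of the non-sterol isoprenoid branch, which draw on farnesyl diphosphate for prenyl groups and ubiquinone, 0 passed in the 3 tools and 0 at an unadjusted p under 0.05, with a median of -0.03. Pggt1b, a prenyltransferase subunit, came nearest at 2.05 ± 0.201 FPKM in TBI and 2.13 ± 0.137 FPKM in Sham.

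Of 25 further fatty acid genes 24 were tested and 0 passed in edgeR, DESeq2 and limma, where 4.04% of all tested genes passed in edgeR. At an unadjusted p under 0.05 there were 0, where 15.0% of all tested genes stood, and the median was 0.01. Thrsp, a lipogenic regulator in liver, came nearest at 8.28 ± 1.48 FPKM in TBI and 6.52 ± 0.80 FPKM in Sham. Of 12 genes of fatty acid oxidation 0 passed in edgeR, with a median log2 change of 0.17. DESeq2 called 2 higher, where it called 5.13% of all genes higher. Limma called 1 higher on log2(FPKM + 1), where 4.17% of all genes were, and 0 on the TPM scale, where 4.43% were. At an unadjusted p under 0.05 in edgeR, 5 of the 12 were higher and 0 lower, where 9.57% of all tested genes were higher. Hadha, a subunit of the mitochondrial trifunctional protein, was at 8.34 ± 0.396 FPKM in TBI and 7.08 ± 0.368 FPKM in Sham, without overlap (edgeR adjusted p = 0.0707).

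Microglia and macrophage markers and some astrocyte, endothelial and fibroblast markers were higher in TBI, while 0 neuron, cortical layer, oligodendrocyte or oligodendrocyte precursor markers passed. In edgeR 4.04% of all tested genes passed in either direction and 0.472% were lower, so 0 calls in such short lists is near these shares. At an unadjusted p under 0.05, 15.0% of all tested genes stood. In whole tissue, fewer cells of a type and less RNA per cell cannot be told apart. All 7 cortical layer markers were detected, with 0 called in edgeR, DESeq2 and limma and 0 at an unadjusted p under 0.05, a median log2 change of -0.17 and sums of 65.0 to 78.2 FPKM in TBI and 74.7 to 95.8 FPKM in Sham. Of 12 oligodendrocyte markers 0 passed in edgeR, DESeq2 and limma and 0 at an unadjusted p under 0.05, with a median log2 change of 0.00 (0.0036) and sums of 562 to 947 FPKM in TBI and 592 to 899 FPKM in Sham. Of 10 neuron markers 0 passed in the 3 tools and 1 was lower at an unadjusted p under 0.05, where 5.42% of all tested genes were. Their median was -0.09, with sums of 1930 to 2369 FPKM in TBI and 1896 to 2499 FPKM in Sham. Of 9 astrocyte markers 2 were higher in edgeR, where 3.57% of all tested genes were. DESeq2 called 4 of them higher, where it called 5.13% of all genes higher. Limma called 4 higher on log2(FPKM + 1), where 4.17% of all genes were, and 3 on the TPM scale, where 4.43% were. The median of the 9 markers was 0.24, with sums of 509 to 665 FPKM in TBI and 414 to 493 FPKM in Sham.

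Microglia and macrophage markers were higher for 9 of 10 in edgeR, where 3.57% of all tested genes were. They summed to 845, 534, 666, 407 and 586 FPKM in TBI replicates 1 to 5, against 175 to 198 FPKM in Sham. Their sum was highest in TBI replicate 1, the library with the lowest sterol median, and lowest in TBI replicate 4, whose sterol median was -0.13. Of 6 endothelial markers 1 was higher, against the same 3.57%, with sums of 42.1 to 51.8 FPKM in TBI and 37.1 to 45.7 FPKM in Sham. Of 6 fibroblast and adipocyte markers 4 were tested and 2 higher, against the same 3.57%. Their sums were 10.5 to 19.7 FPKM in TBI and 6.01 to 8.85 FPKM in Sham. Of 7 oligodendrocyte precursor markers 0 passed in the 3 tools. At an unadjusted p under 0.05, 1 was higher, where 9.57% of all tested genes were. Their sums were 72.8 to 128 FPKM in TBI and 72.4 to 101 FPKM in Sham. The part of these cell types in the sterol and Srebf1 differences was not tested.

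Total estimated counts ranged from 47641137 to 70464084 in TBI libraries and from 59396065 to 71272644 in Sham libraries, with means of 60.2 ± 10.3 megacounts in TBI and 63.8 ± 4.48 megacounts in Sham. An exact permutation test of the totals, two-sided, gave p = 0.444, where the smallest it can give is 0.00794. The lowest total was that of TBI replicate 1.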

How the data were processed

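Cortical RNA was extracted in TRIzol and read from both ends on a NovaSeq, per the labels. The submitters' processing notes name cutadapt 1.9, HISAT2, StringTie and the mm10 build; the annotation release and the counting tool are not given in the sources used here. The deposited table holds estimated counts and FPKM per gene and library, per the file headers, with 0 sample columns unused. All counts the authors deposited are whole, and 42.6% of values from 1 to 12 were multiples of 4, where an even spread gives 25%, so about 4 counts may stand for 1 fragment. FPKM values were scaled by the authors. Entries at the fill value 0.0001 with a count of 0 were read as 0.

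Genes with at least 0.5 FPKM in at least 5 libraries entered the tests (16316). The main test was edgeR 4.0.16 under R 4.3.3 (TMM scaling, group as the sole term, quasi-likelihood F), Benjamini-Hochberg adjusted over the tested genes. SEs and 95% intervals are approximate. Alternatives were DESeq2 1.42.0, DESeq2 size factors, limma 3.58.1 on log2(FPKM + 1), log2(FPKM + 0.1) and log2(TPM + 1) with TPM computed from FPKM, other filters, counts divided by 4, a replicate block, and leaving out each library. The script was tested on simulated data. Members and lists were chosen with earlier results of these data known. All members were named, with values per library for those that passed and the 2 of smallest p in a branch without calls; Idi1, Nsdhl, Insig1, Srebf2 and Scd2 were chosen for such values after they were seen. From each other list up to 3 called genes with the smallest adjusted p, or the 1 of smallest p, were eligible. Replicates are separate mice per the design text.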

Additional observations from a re-analysis of the deposited data

Results flagged for a closer look

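Of 66 groups of 5 libraries (33 members in each group) 4 held a library whose gap to the nearest other exceeded 0.71 of the group's range, a size that chance gives in about 1 of 20 groups. Scd2 was at 167 FPKM in TBI replicate 3, where the other TBI libraries ranged from 34.9 to 49.5 FPKM. It was at 140 FPKM in Sham replicate 1, where the other Sham libraries ranged from 23.5 to 41.7 FPKM. Fads1 was at 57.4 FPKM in TBI replicate 5, where the other TBI libraries ranged from 44.2 to 47.8 FPKM. Srebf1 was at 6.15 FPKM in TBI replicate 1, where the other TBI libraries lay between 6.59 and 6.67 FPKM, and all of these were above the Sham libraries.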

How the results depend on the processing

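Hmgcs1 and Srebf1 passed in all 19 alternatives. The number of genes called, 659, became 385 with an FPKM filter of 2, 1066 with DESeq2 and 402 with the replicate block, and ranged from 482 to 722 with a library left out. The 3 called sterol enzymes became 6 with DESeq2 and 1 on the TPM scale, and ranged from 2 to 4 with a library left out. Of all genes called, the 77 lower genes became 229 with DESeq2, 27 on the TPM scale, 42 and 39 in the other limma fits, 43 without a filter, 48 with the FPKM filter of 2 and 29 with the block. The 2 called SREBP genes became 1 on the TPM scale and 3, Insig1 added, with DESeq2, with DESeq2 size factors and without TBI replicate 5, and the 0 called fatty acid genes 1 with DESeq2 and 1 on the TPM scale. Beside the 8 fits that leave out a library, Cyp51 lost its call without a filter, with the FPKM filter of 2, with counts divided by 4 and in the 3 limma fits. Deviations from the group mean were correlated between same-numbered libraries at -0.109 to 0.133, over 0.1 in 2 of 5 pairs. Differently numbered libraries ran from -0.165 to 0.143. Of 10 libraries 5 were closest to their own number, so these values do not settle whether the numbers pair the libraries. With the replicate block 3 sterol enzymes were called, Stard4 lost its call (adjusted p = 0.0693) and Insig1 gained one (adjusted p = 0.0448). The estimates of 6 members without a call changed sign in some alternative, at adjusted p of 0.680 or more. The causes were not tested. The lowest count of a member in a library was 582.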

Other observations

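The ratio of Srebf1 to Srebf2, in FPKM, was 0.341, 0.328, 0.330, 0.276 and 0.299 in TBI replicates 1 to 5, against 0.162, 0.143, 0.242, 0.183 and 0.333 in Sham replicates 1 to 5. The ratio of Insig1 to Insig2 was 1.24, 1.20, 1.498, 1.40 and 1.67 in TBI libraries, against 1.55, 1.503, 1.69, 1.93 and 1.64 in Sham libraries. Both ratios overlapped between the groups, and neither was tested.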
